A study of Brassica rapa subsp. pekinensis with 2 samples.

Results

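Antisense transcripts are RNAs copied from the strand opposite a gene, so that at least part of their exons lies across from that gene. In the deposited table of linear RNAs of Chinese cabbage, 372 of 50834 transcripts were such antisense transcripts. They were chosen as all rows that the assembly comparison had given class code x, its mark for an exon overlap with a reference gene on the other strand, with a length of at least 200 nt and a position outside a window of chromosome A06. The table held 373 class x rows in all. None was shorter than 200 nt, and 1 lay in the A06 window and was left out. Each member was then paired with the reference transcripts (class code =) that its span overlapped on the opposite strand.

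Both libraries came from total RNA of the doubled haploid line ‘FT’ after depletion of ribosomal RNA. The ‘Ant’ library held anthers pooled over stages of development. The ‘Mix’ library held whole seedlings with 4 true leaves, that is root, stem and leaf together. The labels give vernalization of the seed for both groups, and the methods of the study give it for the anther plants only. Each group was 1 library, so no difference below has a replicate check and no test was made. A lower level in 1 library can reflect fewer cells of a type or less RNA per cell, and in pooled tissue these cannot be told apart.

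A natural antisense transcript that overlaps a gene in its own locus is called a cis transcript. Such RNAs can start in the promoter region of the gene, within its body or beyond its 3′ end, and are described by this arrangement as head to head, internal or tail to tail. In Arabidopsis thaliana, the antisense RNAs of the flowering repressor FLC take part in its silencing, and antisense RNAs are also known at the seed dormancy gene DOG1 and at genes for cold response. Antisense pairs can also give rise to small RNAs. In many plant transcriptomes, antisense RNAs are expressed at low levels and in a tissue-restricted way.

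The members were short and mostly had a single intron. Their length, summed over exons, was 399 nt at the median and ran from 200 to 4533 nt. The span on the chromosome was 932 bases at the median. Of the 372 members, 250 (67.2%) had 2 exons, 100 had 3 or more and 22 had 1. Of all transcripts in the deposited file, 14.3% had 2 exons, and of the intergenic transcripts (class code u) 29.2% did. Of transcripts with another kind of overlap with a reference gene (class code o), 75.5% did. Among transcripts of 2 exons or more, the share with 2 was 71.4% for the members and 51.5% for intergenic transcripts. The members were spread over both strands, with 187 on the plus strand and 185 on the minus strand. All 10 chromosomes carried them, from 7.02 per 1000 reference transcripts on A10 to 14.7 on A08. They fell into 319 assembled loci, of which 44 held 2 or more members.

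Exon number and strand were linked in this assembly. Every transcript with an intron had a strand, whereas 1694 of the 2581 assembled transcripts with 1 exon had none and so could not be called antisense. The labels name a stranded library kit, the methods of the study name another kit, and the strand setting of the counting is not given in the sources used here. Without strand, reads of an antisense transcript and of its partner cannot be told apart where their exons overlap. Overlap of the member spans with reference transcripts on their own strand is not reported here.

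A range of lengths was crowded. Of the 250 members with 2 exons, 46 (18.4%) were 280 to 300 nt long, against 19 in the 21 lengths just below and 11 in the 21 lengths just above. Of 955 intergenic transcripts with 2 exons, 18 (1.88%) were in that range. The introns of the 2-exon members were 346 bases at the median, with a range from 21 to 37695 bases, and 94 of them were longer than 1000 bases.

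A partner was found for 342 of the 372 members, and 30 had none. The reference gene named in the row was itself missing from the class = rows for each of these 30. Of the paired members, 292 overlapped 1 reference transcript, 43 overlapped 2 and 7 overlapped 3, which gave 399 pairs over 319 reference transcripts. For the counts that follow, each member had 1 main partner, the one with the longest overlap. There were 283 distinct main partners, and 45 of them had more than 1 antisense transcript. The most was 5, opposite BraA03g028200.3C, for which the table gives no description. The main partner was the gene named in the row for 319 of the 342 members.

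The most frequent arrangement was tail to tail, with both 3′ ends overlapping, in 111 pairs. In 104 pairs the antisense transcript lay inside the span of its partner, in 78 pairs the 5′ ends overlapped head to head, and in 49 pairs the partner lay inside the span of the antisense transcript. The 5′ end of the antisense transcript lay beyond the 3′ end of the partner in 160 of 342 pairs. Along the partner span, counted from its 5′ end in steps of 20%, the first step held 44 starts, the next 3 held 23, 28 and 35, and the last held 52. The overlap of the spans was 395.5 bases at the median and ran from 1 to 5691 bases. It was under 50 bases in 40 pairs. Of the 21 paired members with 1 exon, 13 overlapped their partner by 4 bases or fewer, and 13 were tail to tail.

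**Figure D1:**
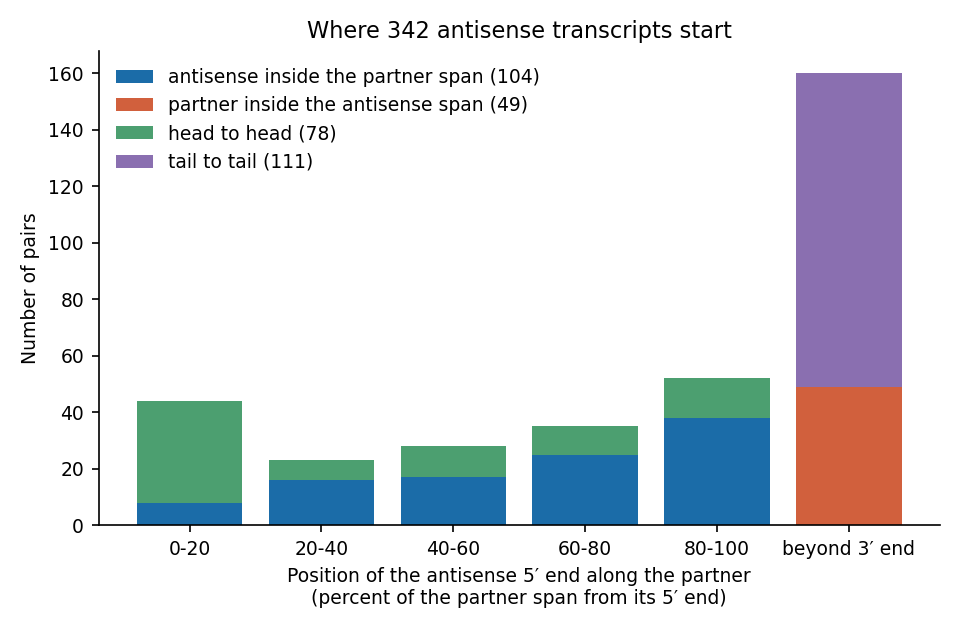
Number of antisense-partner pairs (vertical axis) by the position of the antisense 5′ end along the partner, in steps of 20% of the partner span from its 5′ end or beyond its 3′ end (horizontal axis); colours give the arrangement, with its number of pairs. The 160 starts beyond the 3′ end are the tallest bar, and within the partner the first step (44) and the last (52) hold more starts than the 3 between them.

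Most members were detected in Ant, and many were not detected in Mix. The level in FPKM, the number of fragments scaled to transcript length and library total, was 3.28 at the median over the 372 members in Ant and 0.0696 in Mix. A level above 0 was listed for 351 members in Ant and for 206 in Mix. An FPKM of at least 1 was reached by 320 members in Ant and by 111 in Mix, and an FPKM of at least 10 by 95 and by 29. A floor of 6 estimated counts was set for detection, and 185 members (49.7%) did not exceed it in Mix, against 22 in Ant. Of all transcripts, 22.6% did not exceed it in Mix. The share was 53.3% for intergenic transcripts and 45.0% for intronic ones (class code i), so it was not particular to the members. Together the members took 0.645% of the estimated counts of Ant and 0.0920% of those of Mix. These totals include the A06 window, with 2.07% of the counts of Ant and 56.2% of those of Mix, which lowers the share in Mix. The members had 1395956 counts in Ant and 175602 in Mix. Outside the window the totals were 211891156 and 83613650. MSTRG.25715.1 alone had 239878 of the counts in Ant.

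The log2 ratio of Ant over Mix, taken on FPKM plus 1, was above 1 for 261 of the 357 members with an FPKM of at least 1 in either library, and below -1 for 41. These were 73.1% (95% Wilson interval 68.3 to 77.4, over members taken as independent) and 11.5% (8.58 to 15.2). By the same rule, 50.2% of all transcripts were above 1 and 16.8% were below -1. The shares above 1 were 41.0% for reference transcripts, 56.9% for assembled isoforms of reference genes (class code j) and 75.9% for intergenic transcripts. The median log2 ratio was 1.69 for the members (95% order-statistic interval 1.55 to 1.84), against 1.01 for all transcripts and 1.53 for intergenic transcripts. With values at or under the floor set to the floor and no pseudocount, the median log2 ratio was 4.22 for the members and 1.49 for all transcripts. Over all 372 members, those under the minimum included, 301 had a ratio above 0.

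With no minimum the share above 1 was 70.2% over the 372 members, with a median of 1.65. Of the 357 members, 246 reached an FPKM of 1 in Ant but not in Mix, 37 did so in Mix but not in Ant, and 74 did so in both. A member that passed in 1 library only had to be higher there, and 235 of the 246 and 34 of the 37 were past 1 in that direction. Among the 74 members that reached an FPKM of 1 in both libraries, 26 (35.1%) had a log2 ratio above 1 and 7 (9.46%) had one below -1, with a median of 0.34. Among the 17562 transcripts of the table that did so, 36.0% were above 1 and 13.2% were below -1, with a median of 0.54. For members at this level in both tissues, the share above 1 was thus not higher than that of all such transcripts.

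**Figure D2:**
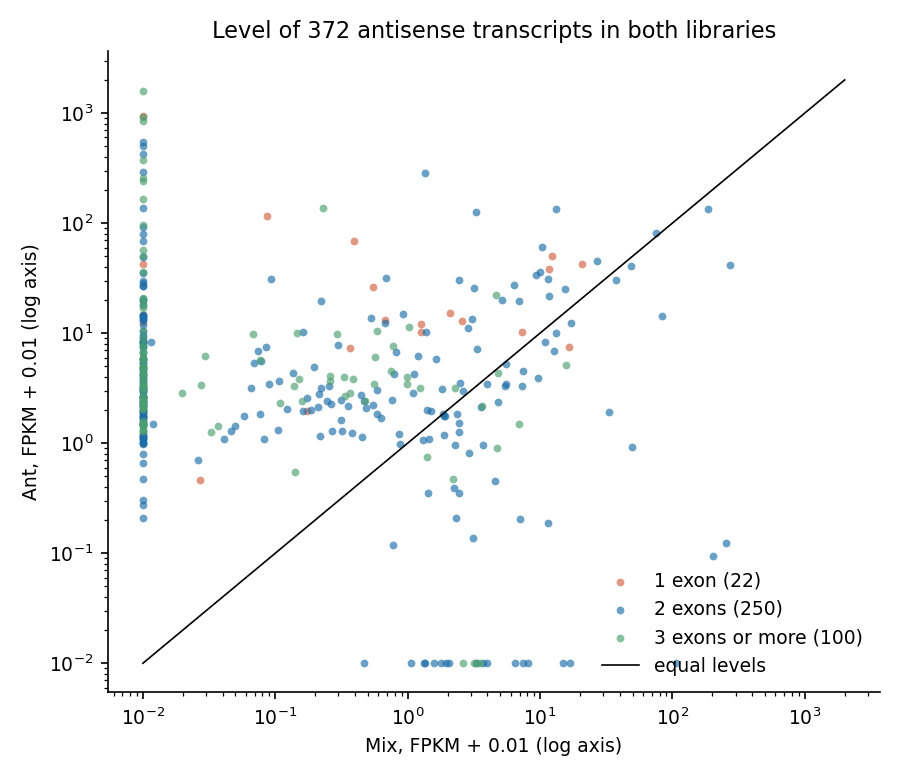
Level of each of the 372 antisense transcripts in Mix (horizontal axis) and Ant (vertical axis), as FPKM plus 0.01 on log axes, coloured by exon number, with the line of equal levels. The column of points at the left edge holds the 166 members listed at 0 in Mix, and the row at the lower edge the 21 listed at 0 in Ant.

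The scale of the 2 libraries differed. The A06 window took 56.2% of the estimated counts of Mix and 2.07% of those of Ant, so that removing it from the totals lowered the ratio of the library scales, Ant to Mix, by 1.16 on the log2 scale. Ratios on FPKM plus 1 moved less at low levels. After that change 238 of 362 members (65.7%) had a log2 ratio above 1 and 69 (19.1%) had one below -1, with a median of 1.48. On these totals 34.3% of all transcripts were above 1 and 30.8% were below -1, with a median of 0.09, and of intergenic transcripts 68.5% and 12.4%, with a median of 1.41. The labelled tissues were visible in their markers. Of 42 expressed anther and pollen markers, 31 had a log2 ratio above 2 and 1 had one below -2, and their summed FPKM was 9103 in Ant and 95.8 in Mix. Of 27 expressed green tissue markers 26 had a log2 ratio below -2, with a summed FPKM of 26.7 in Ant and 19120 in Mix.

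The members highest in Ant were listed at 0 in Mix. MSTRG.25715.1 (A09, 20926774 to 20928189, plus strand, 3 exons) had an FPKM of 1579 in Ant and was at least 39756-fold higher there than the floor of Mix. It overlapped by 142 bases, tail to tail, BraA09g029270.3C, described as a non-specific lipid-transfer protein-like protein, whose FPKM was 135 in Ant and 0 in Mix. Proteins of this family carry lipids, and some are made in the tapetum, the layer that feeds the pollen. The antisense transcript was listed at 11.7 times the FPKM of its partner. That partner is a single reference transcript of 1 exon (20928048 to 20928224), taken without class j isoforms of its gene. Which strand was the more abundant was not tested.

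MSTRG.1010.1 (A01, 7178102 to 7178600, plus strand, 1 exon) had an FPKM of 948 in Ant and 0 in Mix, at least 18182-fold above the floor. It lay inside the span of BraA01g013610.3C, described as the putative cysteine-rich repeat secretory protein 37, at 199.99 FPKM in Ant and 0 in Mix. Both strands of the locus were therefore listed in anthers and at 0 in seedlings. A second member opposite this gene, MSTRG.1008.1, was at 0.295 FPKM in Ant and 0 in Mix.

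MSTRG.6232.1 (A03, 1356610 to 1358603, minus strand, 3 exons) had an FPKM of 916 in Ant and 0 in Mix. Its partner BraA03g003070.3C, named only by its Brassica napus match, was at 35.1 in Ant and 0 in Mix. The antisense level was 26.1 times that of the partner. MSTRG.24070.2 (A09, 2202877 to 2203515, plus strand, 3 exons) showed the reverse order. It reached 845 FPKM in Ant against 0 in Mix, and its partner BraA09g003580.3C, described as a cell wall protein DAN4-like, reached 7612 in Ant against 0 in Mix.

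For other members high in Ant the main partner was nearly silent. MSTRG.20167.1 (A07, 20097620 to 20102678, minus strand, 2 exons) had an FPKM of 542 in Ant and 0 in Mix, opposite BraA07g026360.3C at 0.273 in Ant and 0 in Mix. This partner carried 3 further members, MSTRG.20166.1 to MSTRG.20166.3, at 11.9, 4.35 and 2.37 FPKM in Ant and at 0 in Mix. MSTRG.24202.1 (A09, 3249650 to 3257156, plus strand, 2 exons) had an FPKM of 289 in Ant and 0 in Mix. Its longest overlap was with BraA09g005530.3C, a UMP-CMP kinase 3-like gene at 0.164 in Ant and 0.0158 in Mix, which could lie only in the intron of the antisense transcript. Its other partner was BraA09g005520.3C, an uncharacterized gene that the study counts among those predominant in anthers, at 6011 FPKM in Ant and 0 in Mix. It was the only pair with 1 of the 44 anther genes taken from the study.

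The members highest in Mix were fewer and lower. MSTRG.25015.1 (A09, 10834680 to 10838499, minus strand, 2 exons) had an FPKM of 41.5 in Ant and 273 in Mix, 6.59-fold higher in Mix. Its partner BraA09g017430.3C was at 0 in Ant and 0.392 in Mix and could lie only in the intron. MSTRG.22175.1 (A08, 11109733 to 11110234, plus strand, 2 exons) was high in both libraries, at 135 FPKM in Ant and 185 in Mix, while its uncharacterized partner BraA08g012910.3C was at 0.494 and 0. MSTRG.18514.1 (A06, 28966947 to 28967399, minus strand, 2 exons) was at 0 in Ant and 14.9 in Mix, inside BraA06g044580.3C at 0 and 112. In this last pair both strands were listed in seedlings and at 0 in anthers.

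Antisense transcripts and their partners differed between the libraries in the same direction in most pairs. Both sides reached an FPKM of 1 in either library in 226 of the 342 pairs, which involved 193 distinct partners. The ratios had the same sign in 190 of these 226 pairs (84.1%). Ratios above 0 were common on each side, with 172 antisense transcripts (76.1%) and 158 partners (69.9%), against 70.1% of all transcripts and 62.2% of reference transcripts. Of 155 pairs whose antisense ratio was above 1, the partner ratio was above 0 in 132, with a median of 1.81. Of 33 pairs whose antisense ratio was below -1, the partner ratio was below 0 in 29, with a median of -3.05. Across the 226 pairs Pearson’s r of the log2 ratios was 0.72 and Spearman’s rho was 0.70. These points share both libraries, and some share a partner or reads of overlapping exons. The share of pairs with the same sign also varied with the scale of the libraries. On totals without the A06 window it was 76.5% (186 of 243 pairs). With ratios centred on the median transcript it was 79.2% (179 of 226).

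The fold cutoffs of the study were applied, a log2 ratio beyond 1 for the antisense transcript (as for lncRNAs) and beyond 2 for the partner. The study also set a limit on the P value, which was not used here. By the fold cutoffs alone, on FPKM plus 1, 72 pairs were higher in Ant on both sides and 20 were lower on both sides. Of all reference transcripts with an FPKM of at least 1 in either library, 21.2% had a log2 ratio above 2 and 9.48% had one below -2. In 7 pairs the antisense transcript was higher in Ant and the partner was lower, and no pair had the reverse. The same sign was found in 64 of 74 pairs with the antisense transcript inside its partner, in 47 of 57 head to head, in 21 of 24 with the partner inside and in 58 of 71 tail to tail. Over the arrangements the share ran from 81.7% to 87.5%.

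**Figure D3:**
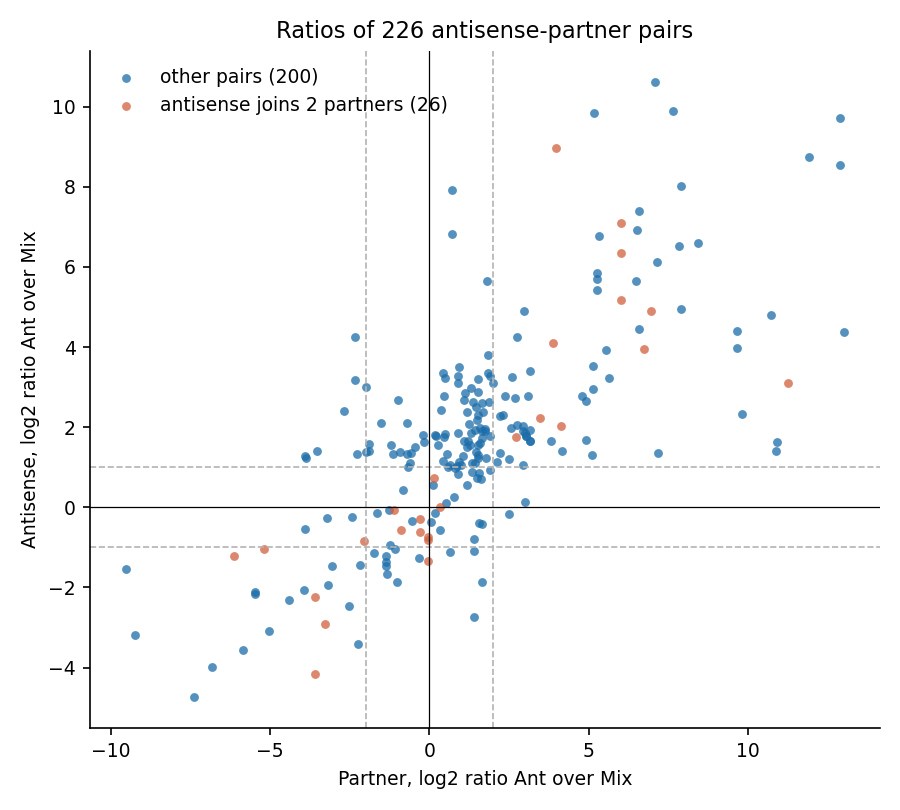
Log2 ratio of Ant over Mix of the partner (horizontal axis) and of the antisense transcript (vertical axis) for 226 pairs; dashed lines mark ratios of 2 and -2 for the partner and of 1 and -1 for the antisense transcript, and the second colour marks the 26 pairs whose antisense transcript joins 2 partners. Most points lie in the quadrants of equal sign (190), and the corner with a high antisense and a low partner ratio holds the 7 opposite pairs.

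The 7 opposite pairs belonged to 6 genes. At BraA10g001110.3C, which encodes protoporphyrinogen oxidase 1 of the chloroplast, an enzyme shared by heme and chlorophyll synthesis, the partner was at 1.18 FPKM in Ant and 9.87 in Mix. Its antisense transcripts MSTRG.28278.1 and MSTRG.28278.2 (A10, 585956 to 586657, minus strand) were at 8.05 and 18.02 in Ant and at 0 in Mix. The antisense ratios were 3.18 and 4.25 and the partner ratio was -2.32 on the log2 scale. The listed FPKM was thus higher for the antisense transcripts in anthers and for the reference transcript in seedlings. MSTRG.28278.2 and the partner overlapped by only 187 bases, tail to tail. The partner level is that of a single reference transcript, without class j isoforms of its gene. Which strand was the more abundant was not tested.

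At BraA03g046450.3C, which encodes the RALF-like peptide 33, a member of a family of signalling peptides, the partner was at 13.0 FPKM in Ant and 89.3 in Mix. Its antisense transcript MSTRG.9379.1 (A03, 23511522 to 23511942, minus strand, 1 exon) was at 15.3 in Ant and 2.07 in Mix, but the 2 spans shared only 1 base at their 3′ ends. The ratios were 2.41 and -2.68. At BraA03g040440.3C, described as a lipid-transfer-like protein, the partner was at 0.711 in Ant and 7.16 in Mix, and MSTRG.8935.1 was at 4.28 in Ant and 1.11 in Mix.

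The other 3 opposite pairs had antisense transcripts just above an FPKM of 1. The partner BraA02g042960.3C, a SNAP33-like gene of vesicle fusion, was at 0 in Ant and 13.9 in Mix, opposite MSTRG.5822.2 at 1.43 and 0. A sister isoform opposite the same gene, MSTRG.5822.1, was at 2.19 in Ant and 3.62 in Mix, with a log2 ratio of -0.53, so that its ratio had the sign of the partner. The partner BraA05g021680.3C, described as the MDIS1-interacting receptor like kinase 2, was at 0.844 in Ant and 26.1 in Mix, opposite MSTRG.13978.1 at 1.36 and 0. The partner BraA04g027030.3C, described as an auxin transporter protein 1-like, was at 0 in Ant and 10.4 in Mix, opposite MSTRG.12183.1 at 1.77 and 0.0478. With totals without the A06 window the number of opposite pairs was 14 of 243, and with a pseudocount of 0.1 it was 13 of 226.

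Within a library, antisense transcripts were not uniformly lower than their partners. The median log2 of antisense to partner FPKM, each plus 1, was 0.21 in Ant (95% order-statistic interval 0 to 0.59) and -0.08 in Mix (-0.20 to -0.01) over the 342 pairs. The antisense transcript had the higher FPKM in 186 pairs in Ant and in 65 in Mix, and in 54 pairs in both. In Mix, 84 pairs were listed at 0 on both sides. Among the pairs expressed on both sides the median was -0.63 in Ant and -0.70 in Mix. The direction in Ant rested on the partner being a single reference transcript, since the median was -0.49 when the class j isoforms of the partner gene were added to it.

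The largest excess of antisense in Ant among pairs with both sides at an FPKM of at least 1 in that library was at BraA08g034830.3C, a gene for a homolog of the pre-mRNA-processing factor 19. MSTRG.23719.1 (A08, 22504716 to 22507704, plus strand, 3 exons) was at 240 FPKM in Ant and 0 in Mix, 202 times its partner, which was at 1.18 in Ant and 0.336 in Mix. The overlap was 29 bases at the 3′ ends. In Mix the largest excess with both sides at an FPKM of at least 1 was at BraA02g010330.3C, which encodes elongation factor 1-alpha 1. There MSTRG.3787.2 (A02, 5053434 to 5061494, plus strand, 2 exons) was at 0.195 in Ant and 6.99 in Mix, and the partner was at 4.92 and 1.25. Its 2 sister isoforms, MSTRG.3787.1 and MSTRG.3787.3, were at 2.35 and 0.808 in Ant and at 4.78 and 2.87 in Mix, so that all 3 had a ratio below 0 opposite a partner with one above 0.

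Partners were grouped by words in their descriptions, which placed 84 of the 342 pairs in a list and left 258 in none. Beside each list stand the values over all pairs, in which 237 of 331 antisense transcripts had a log2 ratio above 1, 40 had one below -1, and the median was 1.66 for antisense transcripts and 1.33 for partners. Photosynthesis genes gave 4 pairs, and all 4 antisense transcripts had a ratio below -1, with a median of -3.38. Their partners, which bind chlorophyll or form photosystem I, had a median of -8.31.

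The photosynthesis pairs were led by MSTRG.13694.1 (A05, 9517103 to 9517732, minus strand, 2 exons), at 0.912 FPKM in Ant and 49.9 in Mix. Its partner BraA05g016110.3C, which encodes subunit V of the photosystem I reaction center, was at 2.01 in Ant and 502 in Mix. MSTRG.13016.1 (A05, 3036829 to 3038409, plus strand, 2 exons) was at 1.90 in Ant and 33.4 in Mix, opposite BraA05g006030.3C, the light-harvesting protein CP29.3, at 2.92 and 225. In both pairs the ratio of the antisense transcript was nearer to 0 than that of its partner. The lower-level pairs were MSTRG.12022.1 at 0 in Ant and 8.09 in Mix opposite BraA04g024630.3C at 3.92 and 2970, and MSTRG.19108.1 at 0 and 1.93 opposite BraA07g010780.3C at 0.229 and 894. Both partners encode chlorophyll a-b binding protein 1. For these antisense transcripts only bounds can be given, with levels in Mix at least 93.2-fold and 17.4-fold higher than the floor of Ant.

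Pectin and wall enzymes, a list that by its words also took in wall proteins that are not enzymes, gave 15 pairs over 12 partners. An FPKM of at least 1 in either library was reached by 14 antisense transcripts. Of these, 10 had a ratio above 1 and 4 had one below -1, with a median of 3.99. Their partners had a median of 6.02. Several of these antisense transcripts join 2 partners and are described below. MSTRG.2756.1, MSTRG.2757.1 and MSTRG.2757.2 shared the main partner BraA01g041280.3C, whose own log2 ratio was 6.02. MSTRG.2469.1 and MSTRG.2469.2, both below -1, were isoforms of 1 locus. MSTRG.14805.1 was at 427 FPKM in Ant and 0 in Mix, opposite BraA05g034430.3C, a fasciclin-like arabinogalactan protein 14, at 3876 and 0. MSTRG.10572.1 was at 49.2 and 0 opposite the expansin-B5-like gene BraA04g001690.3C at 89.7 and 0; expansins loosen the wall as cells grow. MSTRG.10519.1 was low, at 1.66 and 0, opposite a pectinesterase gene, BraA04g000830.3C, at 1892 in Ant and 0 in Mix. Both pollen-specific leucine-rich repeat extensin-like partners had antisense transcripts, MSTRG.18837.1 at 5.81 and 0 and MSTRG.22364.1 at 0.988 and 0, the latter just under the minimum.

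Ribosome and translation genes gave 13 pairs over 8 partners, 11 of them for an elongation factor 1-alpha or 2. No antisense ratio was above 1 and 6 were below -1, with a median of -0.81, while their partners had a median of -0.28. MSTRG.2959.1 was at 0.951 FPKM in Ant and 3.69 in Mix opposite BraA01g044060.3C, the 40S ribosomal protein S7, at 41.8 and 52.7. MSTRG.29286.1 was at 0 in Ant and 2.63 in Mix opposite the elongation factor 1-alpha gene BraA10g018190.3C, at 270 and 541. The antisense level was thus a small share of that of its partner in both pairs. The list counts main partners only. Opposite ribosomal protein genes with a shorter overlap, MSTRG.9024.1 was at 45.2 in Ant and 27.0 in Mix at the 60S L5-1-like gene BraA03g041620.3C, and MSTRG.10434.1 was at 3.39 and 0.0176 at the 60S L3-2-like gene BraA03g064990.3C, the gene named in its row. Their log2 ratios were 0.72 and 2.11.

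**Figure D4:**
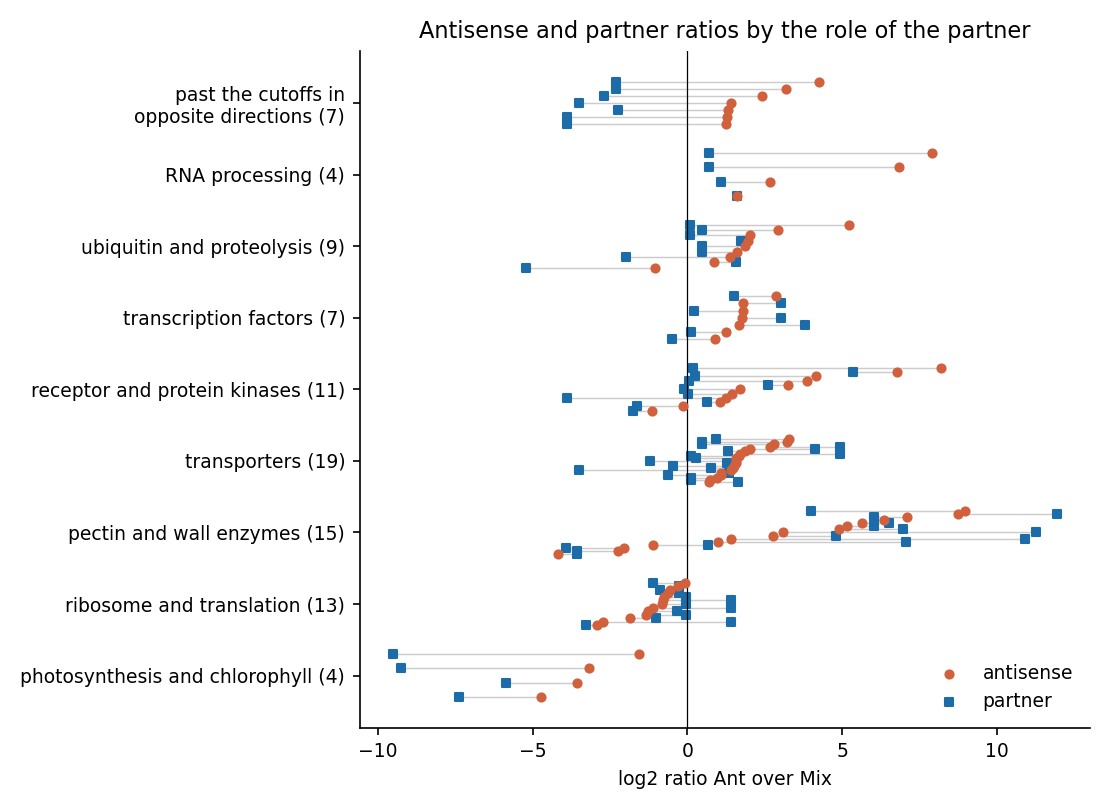
Log2 ratio of Ant over Mix of the antisense transcript (circles) and of its partner (squares), joined by a line for each pair, for partners grouped by the words of their description and, in the top row, for the 7 opposite pairs; numbers in brackets are pairs. All 4 photosynthesis pairs lie below 0 on both sides. No antisense transcript in the translation list, which rests on words of the description, lies above 0. Cell wall pairs lie on both sides of 0.

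Transporters, a list that by its words also took in ATPases with other roles, gave 19 pairs, with a ratio above 1 for 16 of 18 expressed antisense transcripts and below -1 for none. The medians were 1.57 for antisense transcripts and 0.91 for partners. The highest was MSTRG.8005.1 (A03, 13481127 to 13481878, plus strand, 2 exons), at 13.7 FPKM in Ant and 0.514 in Mix, head to head with BraA03g027250.3C, a gene for the aquaporin NIP5-1, at 2.29 and 0.748. NIP5-1 takes up boron in Arabidopsis. MSTRG.17389.1 and MSTRG.17389.2 were at 5.31 and 2.22 in Ant and at 0 in Mix, opposite BraA06g029630.3C, a putative HMA4 metal-transporting ATPase at 115 and 2.84.

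Kinases gave 11 pairs, with 9 antisense ratios above 1 and 1 below -1 and a median of 1.71. The 6 partners with an FPKM of at least 1 in either library had a median of -0.50. MSTRG.29876.1 was at 116 FPKM in Ant and 0.0761 in Mix, sharing 4 bases at the 3′ end with BraA10g026140.3C, a calcium-dependent protein kinase 17 gene, at 39.4 and 0. MSTRG.24920.1 was at 134 and 13.3, inside BraA09g015830.3C, a probable kinase gene, at 1442 and 238. At 2 receptor-like kinase genes, BraA05g017990.3C and BraA06g044500.3C, the antisense transcripts MSTRG.13800.1 and MSTRG.18505.1 were at 16.8 and 13.5 in Ant and the partners at 0.190 and 0.0398. All 4 of these values were 0 in Mix.

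Transcription factors gave 7 pairs with 6 antisense ratios above 1, and the median was 1.77. MSTRG.21504.1 (A08, 915450 to 915815, plus strand, 2 exons) was at 20.1 FPKM in Ant and 5.11 in Mix, tail to tail with BraA08g001340.3C, the RAP2-12 gene of the response to low oxygen, at 17.4 and 14.7. MSTRG.93.1 and MSTRG.93.2 were at 2.41 and 2.45 in Ant and at 0 in Mix, opposite the homeobox gene BraA01g001200.3C (HAT22) at 47.5 and 4.94. MSTRG.7315.1 was at 2.78 and 0.203 opposite BraA03g017840.3C, a heat stress transcription factor A-4a-like gene, at 31.4 and 1.31. In these last 2 loci both strands were higher in Ant.

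One member lay at a relative of the best-known antisense loci of Arabidopsis. MSTRG.17304.1 (A06, 19749584 to 19753267, minus strand, 3 exons) reached 1.43 FPKM in Ant against 0.0270 in Mix. Its span held that of BraA06g028530.3C, described as MADS AFFECTING FLOWERING 5-like, a gene of the FLC family of flowering repressors. The partner was at 0.0836 in Ant, from 9 estimated counts, and 0 in Mix. The only other flowering or clock partner was BraA03g021240.3C, described as EARLY FLOWERING 4-like, a clock gene, at 3.26 and 1.12. Its antisense transcript MSTRG.7559.1 was at 2.08 in Ant and 0.471 in Mix.

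The smaller lists held further members high in Ant. Of 9 ubiquitin and proteolysis pairs 7 had an antisense ratio above 1 and 1 had one below -1. MSTRG.29226.1 (A10, 13007026 to 13007706, plus strand, 3 exons) was at 36.0 FPKM in Ant and 0 in Mix, head to head with a ubiquitin-conjugating enzyme gene, BraA10g017170.3C, at 0.0861 and 0.0287. The only chromatin partner was BraA01g000590.3C, described as an apoptotic chromatin condensation inducer, at 9.21 in Ant and 1.92 in Mix. It shared 4 bases at the 3′ end with MSTRG.47.1 (A01, 287248 to 288139, plus strand, 1 exon), at 68.5 and 0.381. All 4 RNA processing pairs had an antisense ratio above 1.

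A group of members had an unusual structure: a single intron that reached from 1 gene to another on the opposite strand. This group was chosen after the values had been seen, as 2-exon members with 1 partner within reach of their first exon and another, separate partner within reach of their last. Exon positions are not in the table, so reach was taken as the transcript length from each end. There were 34 such members, joining 23 couples of genes. In 28 of them, over 17 couples, the partners at both ends had the same description apart from numbers and words such as “like”. The intron was 5690 bases at the median, with a range from 61 to 37695 bases, and 12 of the 34 members were 280 to 300 nt long. An intron over 3000 bases was found in 30 of these 34 members and in 30 of the other 216 with 2 exons.

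Joining members had ratios on both sides of 0. A log2 ratio above 1 was found for 14 of the 34 (41.2%) and one below -1 for 10 (29.4%), with a median of -0.03, while for the 323 other expressed members these were 76.5% and 9.60%, with a median of 1.75. In all 26 pairs with both sides expressed the ratios of the joining member and its main partner had the same sign. Of the 24 members with the same name and an FPKM of at least 1 at both ends, 23 had the sign of both partners. Where it was higher, the level of the antisense transcript was below that of both partners in 22 of the 28 members with the same name. In some of these members the intron was as long as the distance between the starts of the 2 partners. For MSTRG.11135.1 it was 8181 bases, and the partners started at 8654619 and 8662800. For MSTRG.27954.1 it was 3282 bases, with starts at 43607050 and 43610332. In others the lengths differed, as for MSTRG.11137.2, with 8059 bases between the same partners as MSTRG.11135.1. How these members arose was not tested, and the sequences of the partners were not compared. Where 2 genes are near identical the counting could split their reads, which would leave their levels uncertain.

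The lowest ratios of all members were of this kind. MSTRG.11135.1 (A04, 8654594 to 8662986, minus strand) and MSTRG.11137.2 (A04, 8655188 to 8663783, minus strand) ran between BraA04g010950.3C and BraA04g010970.3C, both genes for the small subunit of Rubisco, the enzyme that fixes carbon. The antisense transcripts were at 0.115 and 0.0847 FPKM in Ant and at 254 and 204 in Mix. The first was at least 2081-fold higher in Mix than the floor of Ant, and the second was 2404-fold higher in Mix. The small subunit genes were at 2.32 and 1.86 in Ant and at 5004 and 3280 in Mix. Another isoform, MSTRG.11137.1, was at 0 in Ant and 107 in Mix. The gene with the longest overlap for all 3, BraA04g010960.3C, lay between them and could meet only the intron. It was at 0.00829 in Ant and 0.263 in Mix.

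Pectin enzymes gave joining members in both directions. MSTRG.2755.1, MSTRG.2756.1, MSTRG.2757.1 and MSTRG.2757.2 ran between the polygalacturonase genes BraA01g041270.3C and BraA01g041280.3C. They were at 28.7, 34.8, 137 and 80.1 FPKM in Ant and at 0 in Mix, and the genes at 123 and 64.0 in Ant and at 0 in Mix. Polygalacturonases cut pectin, and many are made in pollen. MSTRG.5592.2 (A02, 27437450 to 27456002, plus strand, 2 exons) was at 500.01 in Ant and 0 in Mix, between the polygalacturonase-like genes BraA02g039400.3C and BraA02g039420.3C, at 1011 and 1697 in Ant and 0 in Mix. MSTRG.22917.1 was at 7.52 and 0 between the exopolygalacturonase genes BraA08g024270.3C and BraA08g024280.3C, at 2428 and 59.6 in Ant and 0 in Mix. In contrast, MSTRG.2469.1 (A01, 25408633 to 25419549, minus strand) was at 0 in Ant and 16.9 in Mix between the pectinesterase genes BraA01g037350.3C, at 5.50 and 76.7, and BraA01g037360.3C, at 0.996 and 32.0.

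Of the 13 translation pairs, 8 were of the joining kind. MSTRG.27954.1 (A09, 43607071 to 43610625, plus strand) was at 30.4 FPKM in Ant and 37.6 in Mix between the elongation factor 1-alpha genes BraA09g063010.3C, at 132 and 160.0, and BraA09g063020.3C, at 43.8 and 81.5. At the elongation factor 2 genes BraA08g023380.3C and BraA08g023390.3C, 4 members of 4 assembled loci shared an intron length of 5690 bases. They were MSTRG.22837.1 to MSTRG.22840.1, at 5.19, 6.84, 0.344 and 0.957 in Ant and at 5.51, 12.8, 2.41 and 2.28 in Mix. MSTRG.17952.1 was at 0 in Ant and 6.48 in Mix, between BraA06g037340.3C, named only by its Brassica napus match, at 2.91 and 30.7, and BraA06g037350.3C, described as a chloroplast 50S ribosomal protein L12-3-like, at 11.3 and 118.

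**Figure D5:**
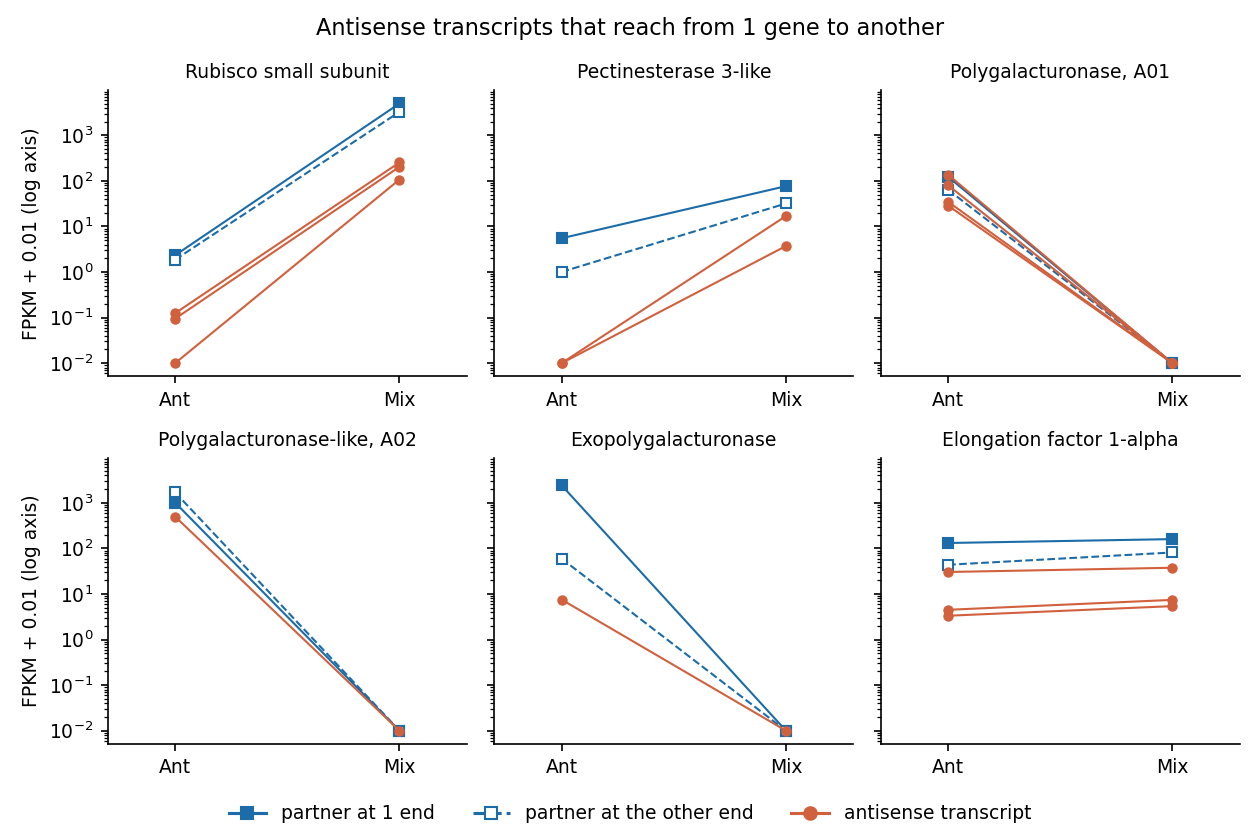
FPKM plus 0.01 (log axis) in Ant and Mix for antisense transcripts (circles) that reach from 1 gene to another and for the partners at either end (filled and open squares), in 6 gene families. The antisense lines run in the direction of both partners in every panel, from the small subunit of Rubisco (254 FPKM in Mix for the highest) to the polygalacturonase-like genes of A02 (500.01 in Ant).

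Without the 34 joining members, the sign was the same in 164 of 200 pairs (82.0%). Of these 200 pairs, 61 were higher and 15 were lower in Ant on both sides, and all 7 opposite pairs were among them. The rule for joining needed a reference transcript at both ends, and other 2-exon members with an intron over 3000 bases were kept. The 30 members without a partner had a median FPKM of 3.11 in Ant and 0 in Mix. Of 26 with an FPKM of at least 1 in either library 24 had a log2 ratio above 1 and 1 had one below -1, with a median of 1.99. The highest was MSTRG.2988.1 (A01, 2 exons) at 31.9 FPKM in Ant and 0.671 in Mix.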

How the data were processed

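Transcripts were taken from 1 table with 1 Ant and 1 Mix library. Per the labels and the methods of the study, reads were mapped to the Brassica rapa genome v3.0, with HISAT2, StringTie and TopHat named, and FPKM was estimated by the authors. The estimated counts that the authors deposited are whole numbers in fixed proportion to FPKM and length, with 232 counts per FPKM and kilobase in Ant and 231 in Mix. Their sums were 216371346 in Ant and 190816341 in Mix. The floor of 6 estimated counts covers counting error only. The intervals were taken over transcripts or pairs as if these were independent, although 97 members shared a locus with another. They do not measure variation between libraries.

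Partners were class = transcripts that overlapped a member by at least 1 base on the opposite strand. The log2 ratio was log2((Ant FPKM + 1)/(Mix FPKM + 1)), which understates the change of low transcripts, and counts used an FPKM of at least 1 in either library. Transcripts named were those with the 6 highest or 6 lowest ratios, the 4 highest levels in a library, the opposite pairs, the 4 highest antisense to partner ratios in a library, partners among known antisense loci or the anther genes of the study, and the highest member of each list of partners. The rest were chosen after their values were seen. The members and lists were chosen with earlier results of these data known. Pairing and counting were tested on simulated data. Python 3.11.15, pandas 2.3.3, NumPy 2.4.6, SciPy 1.17.1 and matplotlib 3.10.9 were used. The circRNA table was not used here. None of the gene names matched the RefSeq table and no genome was used, so no sequence is given.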

Additional observations from a re-analysis of the deposited data

How the results depend on the processing

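Of 102 values recomputed under 16 settings, 79 stayed close to the reported value, that is within 1.5 times for a count and within the interval for a median. With a minimum FPKM of 5, 122 of 159 members were above 1 and 18 below -1 with a median log2 ratio of 2.94, and of 95 pairs 83 had the same sign, 57 were past the cutoffs in the same direction and 3 in opposite directions. The shares were then 76.7%, 11.3% and 87.4%. On totals without the A06 window, 69 members were below -1, the median was 1.48 and 14 pairs were opposite. Centring on the median transcript, a shift of 0.54, gave a median of 1.15. After centring, 198 of 357 members (55.5%) were above 1 and 52 (14.6%) were below -1. As reported, these were 261 (73.1%) and 41 (11.5%). Shares of all transcripts with centring or with a minimum FPKM of 5 are not given here. The shares of members under these settings therefore have no background beside them. Pseudocounts of 0.1 and 0.01 gave medians of 3.95 and 5.55, 13 and 14 opposite pairs, and median log2 antisense to partner levels in Mix of -0.30 and -0.68. An overlap of at least 50% of the antisense span left 138 paired members, of which 87 pairs had the same sign, 42 were past the cutoffs in the same direction and 3 in opposite directions, and an overlap of at least 200 bases left 4 opposite pairs. Adding class j isoforms to the partner turned the median antisense to partner level in Ant to -0.49 and moved that in Mix to -0.34. Settings that keep fewer members or pairs lower the counts by construction, and the cause of the other changes was not tested. The settings without joining members, with the partner named in the row and without partners in the intron only were chosen after seeing the data and moved no value past those limits. No paired analysis was possible because each group had 1 library. Depth limits members near the floor in Mix.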
